A study of Mus musculus with 4 samples.

Results

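Hubs are defined here as narrow anchors with many partners in an H3K27ac HiChIP experiment on mouse embryonic stem cells. HiChIP ligates DNA ends that lie close together in fixed nuclei, enriches the ligated chromatin with an antibody and counts read pairs between genomic intervals, called anchors; a pair of anchors is a loop here if the 4 libraries together gave it 20 counts or more, with no comparison to a background. A hub is an anchor under 10000 bp wide that takes part in at least 10 loops. Of 56562 anchors on the 19 autosomes, 1806 met this rule. The hubs were chosen by width and by the counts summed over all libraries, so their number of loops and their total counts describe them and were not tested; the contrast between strains played no part in the choice.

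B6 stands for lines of the inbred strain C57BL/6J and D2 for lines of DBA/2J; each strain gave 2 lines, and 1 library was made from each line. All lines were cultured with serum, LIF and the inhibitors PD0325901 (1 µM, against MEK) and CHIR99021 (3 µM, against GSK3), and fixation used formaldehyde (1%, 10 min). The library name of D2 replicate 1 carries a 10cyc mark and the other 3 names carry 8cyc, which the labels do not explain. Library totals were 2767882 to 2944258 counts. Embryonic stem cell markers such as Pou5f1 and Nanog lay on wide anchors (8 of 9 genes). They had summed counts of 6315 and 6583 in the B6 libraries and 9601 and 6600 in the D2 libraries, replicate 1 first. The other gene, Esrrb, had no anchor over its start site. Of 9 fibroblast markers, 6, Col1a1 included, had no anchor there either, and the list together had 15 to 32 counts. Every anchor had at least 1 count, so a gene without an anchor was not measured and is no evidence of absent contacts. D2 replicate 1 thus stood apart on the stem cell markers, and its part in the results below is given by leaving it out. Counts in bulk cells cannot tell fewer cells with a contact from fewer contacts per cell.

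H3K27ac is the acetylation of lysine 27 of histone H3, found at active promoters and enhancers, so the method counts contacts of active regulatory DNA in particular. Promoters contact enhancers and other promoters within the same stretch of chromosome. The cohesin complex extrudes DNA loops and is halted by the zinc finger protein CTCF, which does so with a direction: an occupied CTCF motif tends to hold contacts on the side toward which the motif points.

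The direction of CTCF motifs in hubs was set beside the side on which their partners lay. A match to the CTCF core motif (searched on both strands) was present in 193 hubs (10.7%), against 7.72% of the anchors under 10 kb with 5 to 9 loops and 4.39% of all anchors under 10 kb. Anchors of 10 kb or more with at least 10 loops, which are wider, held one in 19.4%. Per 100 kb of sequence there were 1.52 matches in hubs, 1.37 in the anchors with 5 to 9 loops and 1.05 in the wide anchors. Among anchors of 6 to under 10 kb, where widths are closer, a match was held by 11.4% of hubs and 6.54% of the anchors that were no hub. The sequences below, from GRCm38.p6 and written 5′ to 3′ on the strand of the motif, show the match in capitals within 60 bases for 6 hubs with matches on 1 strand only. A motif on the - strand points left (to lower coordinates), a motif on the + strand right.
Near Gprc5c, chr11:114877341-114877400, - strand: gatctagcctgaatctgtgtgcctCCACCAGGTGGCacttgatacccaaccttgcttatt
Near Klf3, chr5:64866796-64866855, - strand: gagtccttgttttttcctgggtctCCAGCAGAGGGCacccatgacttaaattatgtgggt
Near Psmd7, chr8:107572670-107572729, - strand: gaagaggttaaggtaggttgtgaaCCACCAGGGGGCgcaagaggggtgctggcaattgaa
Near Gm11729, chr11:117401756-117401815, + strand: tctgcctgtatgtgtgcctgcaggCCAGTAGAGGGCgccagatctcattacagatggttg
Plbd2, chr5:120505433-120505492, + strand: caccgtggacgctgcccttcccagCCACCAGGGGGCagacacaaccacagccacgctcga
Mark4, chr7:19461644-19461703, + strand: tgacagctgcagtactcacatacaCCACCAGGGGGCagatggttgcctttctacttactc

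The hub near Gprc5c, a G protein-coupled receptor gene, had 10 of its 10 loops on the left, the side to which its match points. The hub near the transcription factor gene Klf3 had 18 loops on the left and 1 on the right, and the hub near the proteasome subunit gene Psmd7 had 13 and 1. The other 3 matches point right. The hub near Gm11729 had 1 loop on the left and 11 on the right, the hub over the start site of Plbd2 had 1 and 10, and the hub over the kinase gene Mark4 had 2 and 8. Of the 178 hubs with at least 80% of their loops on 1 side, 22 had matches on 1 strand only, and at 21 of these hubs (95.5%) they pointed to the side with the loops. The hub over the start site of Csk, a kinase that phosphorylates Src family kinases, was the exception. It had 8 loops on the left and 2 on the right, and its match points right.
Csk, chr9:57658021-57658080, + strand: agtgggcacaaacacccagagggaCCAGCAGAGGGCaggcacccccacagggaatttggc

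Among all 187 hubs with matches on 1 strand, 13 had equal numbers of loops on both sides. The match pointed to the side with more loops in 120 of the other 174 hubs (69.0%). The same count was 272 of 427 (63.7%) for the anchors under 10 kb with 5 to 9 loops and 500 of 833 (60.0%) for anchors of 10 kb or more with at least 10 loops. With at least 80% of loops on 1 side, it was 95 of 137 (69.3%) for the first and 63 of 90 (70.0%) for the second. These are descriptions of sequence beside contacts with no test, and a match is not a measured binding site.

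**Figure D1:**
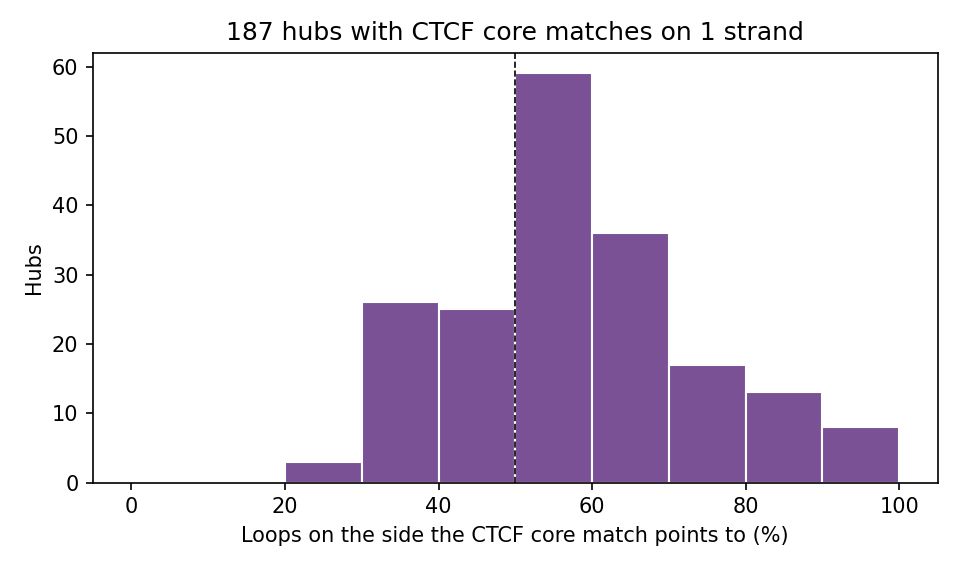
Histogram of 187 hubs with CTCF core motif matches on 1 strand only, by the percent of their loops that lie on the side the match points to (bins of 10 percentage points; the 13 hubs at exactly 50% fall in the bar right of the dashed line). The median hub had 56.3% of its loops on that side; 21 hubs had at least 80% and 1 hub had 20% or less.

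Hub promoters were rich in CG dinucleotides. The RefSeq promoter table (GRCm38.p6) held 1178 promoters that start inside a hub, at 789 hubs. Over the 300 bases from 250 before to 50 after the start, the median was 19 CG dinucleotides at hubs and 7 over all 31223 promoters in the table. The GC box GGGCGG, the letters bound by Sp1 family factors, was present on either strand in 60.5% of hub promoters and 36.1% of all promoters. The promoters below belong to hubs with some of the most loops and show GC boxes in capitals (as GGGCGG or its reverse complement; in Mknk2 the TATA box is in capitals too). Opa3 is cut 55 bases before the start because those bases lie in an annotated exon; the other sequences are the 250 bases before the start.
Opa3, chr7:19228139-19228333, + strand: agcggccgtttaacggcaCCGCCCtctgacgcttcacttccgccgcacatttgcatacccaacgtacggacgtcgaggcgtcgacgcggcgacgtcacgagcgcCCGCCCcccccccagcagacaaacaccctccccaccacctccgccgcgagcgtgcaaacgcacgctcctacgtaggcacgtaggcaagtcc
Blvrb, chr7:27447728-27447977, + strand: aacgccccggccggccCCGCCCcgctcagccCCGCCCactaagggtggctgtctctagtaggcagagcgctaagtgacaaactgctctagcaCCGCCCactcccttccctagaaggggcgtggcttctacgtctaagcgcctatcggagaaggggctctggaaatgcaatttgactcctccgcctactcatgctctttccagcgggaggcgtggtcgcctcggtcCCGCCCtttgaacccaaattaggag
Mknk2, chr10:80676294-80676543, - strand: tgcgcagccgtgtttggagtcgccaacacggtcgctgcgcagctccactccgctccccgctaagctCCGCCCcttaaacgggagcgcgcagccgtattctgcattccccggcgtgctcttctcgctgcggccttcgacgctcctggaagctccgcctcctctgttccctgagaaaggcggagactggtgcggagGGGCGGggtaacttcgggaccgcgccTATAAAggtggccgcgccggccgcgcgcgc

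Not every hub promoter had these features. The promoter of Ak1, whose hub had 24 loops, held 5 CG dinucleotides in its 250 bases and none of the motifs searched:
Ak1, chr2:32625187-32625436, + strand: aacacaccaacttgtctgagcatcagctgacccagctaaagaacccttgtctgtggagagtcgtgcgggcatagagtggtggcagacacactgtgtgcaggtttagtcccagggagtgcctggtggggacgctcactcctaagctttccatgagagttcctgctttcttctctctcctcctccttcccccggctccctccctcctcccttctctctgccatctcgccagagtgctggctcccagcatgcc

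The same motifs were counted in promoters at other anchors. The GC box was present in 58.9% of promoters at anchors under 10 kb with 5 to 9 loops and in 57.5% of those at wide anchors with at least 10 loops, where median CG counts were 18 and 19. The TATA box TATAAA was present in 6.88% of hub promoters, 6.29% and 7.70% of the promoters in those sets, and 13.6% of all promoters. The ETS motif CCGGAAGT was present in 9.76% of hub promoters, 8.06% and 7.27% in those sets and 3.97% of all promoters, and the NRF1 motif in 2.38%, 2.20%, 1.42% and 0.967%. The YY1 motif was present in 1.78%, 0.591%, 1.60% and 0.631%, and the E-box CACGTG in 11.3%, 9.08%, 10.2% and 7.16%. The CRE TGACGTCA was present in 3.06%, 2.95%, 2.82% and 1.84%, and CCAAT in 38.8%, 38.2%, 35.9% and 37.2%. All were searched on both strands, and matches of different motifs may overlap.

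Hubs lay among many genes. A transcription start site lay in 1120 hubs (62.0%), against 44.5% of the anchors under 10 kb with 5 to 9 loops, 27.6% of all anchors under 10 kb and 76.4% of the anchors of 10 kb or more with at least 10 loops. Among anchors of 6 to under 10 kb the share was 61.6% for hubs and 43.3% for other anchors. Their median widths were 8187 and 7305 bp, so widths were closer but not matched. Of the remaining hubs, 297 overlapped an exon, 121 lay in an intron and 268 were intergenic. The start sites belonged to 1555 genes, 1214 of them protein-coding, and 239 hubs (13.2%) held start sites of at least 2 protein-coding genes. Divergent pairs of start sites within 1000 bp lay in 137 hubs (7.59%), 2.95% of the anchors with 5 to 9 loops and 7.31% of the wide anchors. The median hub had 13 protein-coding start sites within 250 kb, where the median of each of those other sets was 8. The hub was joined by loops to a median of 39.3% of the anchors within 250 kb, against 25% and 60.0%. The sets were chosen by their number of loops, so these shares follow in part from the rule.

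The hub with the most loops, 30, lay over the start site of Opa3 (chr7:19225805-19234647), which encodes a mitochondrial membrane protein. Its 509, 406, 561 and 505 counts in B6 replicates 1 and 2 and D2 replicates 1 and 2 overlapped between strains. Its strongest loop, of 217 counts, reached an anchor 11.5 kb away over the start of Gm25134, and the next, of 184 counts, reached Vasp, an actin regulator, 38.9 kb away. Of its partners, 16 were hubs themselves, the most found at any hub. The hub over Tcf3 (chr10:80428727-80437985), the gene of the E-protein transcription factors, had 29 loops, with counts of 504, 433, 607 and 499 that also overlapped. Its strongest loop, of 240 counts, joined it to the start of Mbd3, a subunit of the NuRD chromatin remodeller. The farthest partner of Tcf3 was 920.2 kb away.

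The next hubs were an exonic anchor near Gm15570 with 26 loops (chr7:27280525-27288492), Pola2 with 26 (chr19:5961031-5969441, a subunit of DNA polymerase alpha) and Mrpl4 with 25 (chr9:20996638-21005731, a protein of the mitochondrial ribosome). The Mrpl4 hub had the highest counts of the 10 hubs with the most loops, 778, 666, 981 and 883, and both D2 libraries lay above both B6 libraries. In either direction, the strains did not overlap at 50.6% of all tested anchors and at 52.8% of hubs. The strongest loops of the Mrpl4 hub joined it to the adhesion genes Icam1, Icam4 and Icam5 (756 counts, 21.6 kb) and to the receptor gene S1pr2 (632 counts, 19.4 kb). An intronic anchor of the spectrin gene Sptbn4 and the anchor over the starts of Sptbn4 and Blvrb had 25 loops each. The remaining 3 were Ak1 (adenylate kinase), Mknk2 (a kinase of translation factor eIF4E) and Phrf1 (a PHD and RING finger protein), with 24 each. None of these 10 hubs passed the test between strains (adjusted p from 0.139 to 0.845 by edgeR's quasi-likelihood test). Without D2 replicate 2, 6 of the 10 did (Opa3, Tcf3, Gm15570, Mrpl4, Ak1 and Phrf1, edgeR adjusted p from 0.000588 to 0.0361, all higher in D2), and without any other single library 0 did.

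Most genes of the stem cell programme lay on wider anchors than hubs. Of 28 pluripotency genes, 3 had a hub at a start site (Nr5a2, Dppa3 and Tet1). A wide anchor with at least 10 loops was present there for 18. Another 7, Esrrb included, had no anchor over a start site and were not measured. The 3 were 14.3% of the 21 genes of this list at a tested anchor. Over all 13806 protein-coding genes at tested anchors, 8.79% had a hub at a start site and 31.3% a wide anchor with at least 10 loops. Among genes of other lists at tested anchors, the counts were 5 and 20 of 27 chromatin regulators (Dnmt3a, Setdb1, Smarcc1, Kmt2d and Crebbp at hubs). They were 1 and 16 of 28 genes of LIF, FGF, Wnt, Nodal and BMP signalling (Tcf7), and 1 and 22 of 28 cell cycle genes (Ccne2). For housekeeping genes they were 1 and 20 of 22 (Rpl13), and for early lineage regulators 0 and 2 of 20. In this order, the full lists held 36, 30, 29, 26 and 24 genes. The Dppa3 hub (chr6:122622347-122631047) had 17 loops and 400, 359, 502 and 458 counts. Dppa3 protects DNA methylation in the early embryo, and the strongest loop of its hub (294 counts) ran 27.3 kb to the starts of Apobec1 and the TGF-beta family gene Gdf3. Both D2 libraries were above both B6 libraries, with a log2 fold change D2 over B6 of 0.38 ± 0.164 (SE) that did not pass (adjusted p = 0.147).

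The orphan nuclear receptor gene Nr5a2 had 11 loops at its hub and 96.3 and 80.02 CPM (counts scaled to library size) in B6 and 71.0 and 75.8 in D2, so both B6 libraries were above both D2 libraries; its adjusted p was 0.349. Tet1, which oxidises methylated cytosine, had 10 loops and 175, 160, 192 and 190 counts, with no overlap between strains. Such a lack of overlap was found at 50.6% of all tested anchors. The Crebbp hub, at the gene of the acetyltransferase CBP, had 11 loops and 169, 168, 233 and 213 counts. Its adjusted p of 0.0744 was the smallest of the hubs at listed genes, so 0 of these 11 hubs was called, where 9.75% of all tested anchors were called in either direction. That count of 0 changed with the setting. With library totals within each chromosome, Ccne2 was called (edgeR adjusted p = 0.00499), where 11.1% of all anchors were. At the hubs of Dppa3, Ccne2, Crebbp and Kmt2d, log2 fold changes were 0.382, 0.414, 0.445 and 0.239 with all libraries. With D2 replicate 1 alone for D2 they were 0.544, 0.580, 0.608 and 0.465, and with D2 replicate 2 alone 0.206, 0.235, 0.273 and -0.0185. The hub of Kmt2d, a histone H3 lysine 4 methyltransferase of enhancers, had 18 loops, and that of Rpl13, a ribosomal protein, had 21. Loops of the Rpl13 hub reached 1266 kb.

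Hubs were unevenly spread and often stood close together. Chromosome 11 held 224 hubs (1.83 per Mb) and chromosome 7 held 213 (1.46 per Mb), followed by chromosome 19 with 78 (1.27 per Mb). Chromosomes 12 and 13 held 28 each (0.233 per Mb). With gaps of at most 100 kb, the hubs formed 728 groups, of which 358 were lone hubs. Groups of at least 5 hubs numbered 98 and held 741 hubs (41.0%). The largest, at chr7:18904444-19566444, held 24 hubs over 662 kb, among them the hubs of Opa3, Fosb, Ercc1 and Mark4. The group at chr2:32208383-32988363, with Ak1 and Dnm1, held 21, and the group at chr10:80247108-81064355, with Tcf3 and Mknk2, held 19. Loops that joined 2 hubs numbered 2396 of the 20504 hub loops (11.7%), and 1544 hubs (85.5%) had at least 1 hub partner. Of all hub ends of loops, 53.8% had a partner of 10 kb or more and 68.2% a partner over a start site.

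The loops of a hub reached a median of 79.1 kb in the median hub (quartiles 59.7 and 106.2 kb). The median was 52.5 kb for anchors under 10 kb with 5 to 9 loops and 125.3 kb for wide anchors with at least 10 loops. More loops allow a longer farthest loop, so the median farthest partner of 365.1 kb and the median span of 537.9 kb between the outermost partners are descriptions of the rule. A partner at 1 Mb or more was present at 55 hubs. The strongest loop took a median of 21.3% of the loop counts of a hub. At 41 hubs (2.27%), at least 90% of the loops lay on 1 side.

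**Figure D2:**
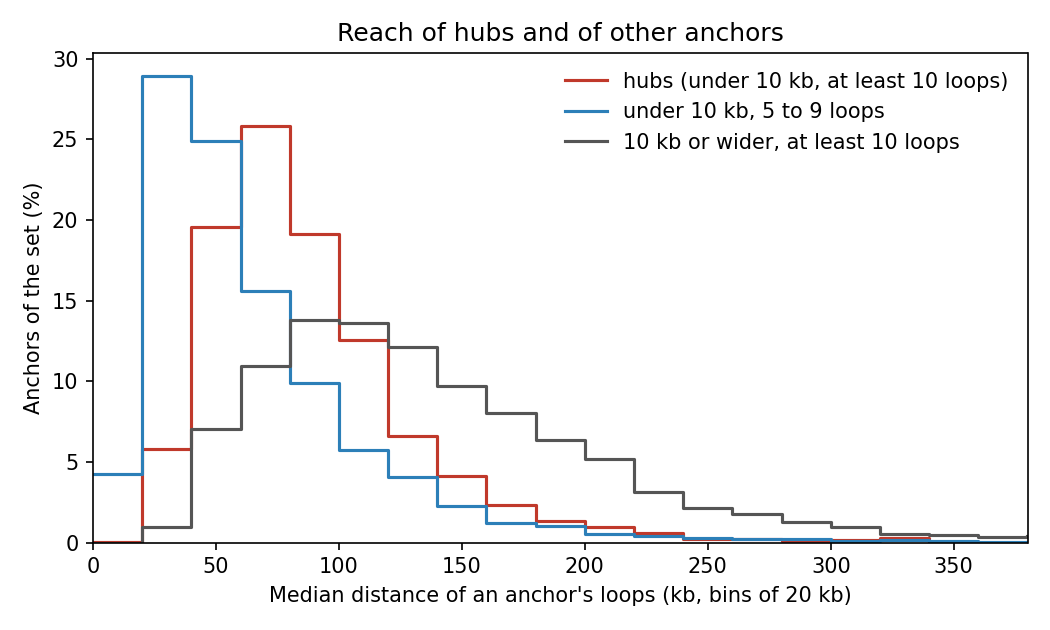
Median distance of an anchor's loops (kb, bins of 20 kb) against the percent of anchors in each bin, for 1806 hubs, 6337 anchors under 10 kb with 5 to 9 loops and 4831 anchors of 10 kb or more with at least 10 loops; medians of 380 kb and more are not drawn. Hubs peak between the other sets, with a median of 79.1 kb against 52.5 and 125.3 kb.

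The longest median distances were at the hubs of Sbf2, a myotubularin-related gene (401.5 kb), and Ttyh1, a membrane protein gene (394.6 kb), and at an intergenic hub near Ephb3 (337.7 kb). Sbf2 had 10 loops, the strongest being to Adm, the gene of the peptide hormone adrenomedullin, 12.9 kb away (103 counts), and its next, of 53 counts, spanned 428.4 kb. Its hub counts were 169, 156, 197 and 201, higher in both D2 libraries, with a log2 fold change of 0.33 ± 0.161 (SE) that did not pass (edgeR adjusted p = 0.218). The shortest were an intergenic hub near the kinase gene Mapk15 (17.8 kb), an intronic hub of the kinase gene Nuak1 (22.2 kb) and an intergenic hub near Gm4613 (23.1 kb). Counts of the Mapk15 hub were 186, 211, 180 and 223, with the strains interleaved.

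Across libraries, hub loops took 9.62 and 9.25% of all counts in B6 and 10.4 and 9.93% in D2 (9.44 ± 0.257% against 10.2 ± 0.355%, SD, n = 2). Both D2 libraries were above both B6 libraries by 0.746 percentage points on average; an exact permutation test of 2 against 2 libraries gave p = 0.33, the smallest it can give. As a share of the counts in tested loops alone, hub loops took 17.0 and 16.6% in B6 and 16.8 and 17.1% in D2, and the strains overlapped. The count-weighted median distance of hub loops was 53.4 and 56.5 kb in B6 and 53.7 and 53.2 kb in D2, which overlapped (54.9 ± 2.20 against 53.4 ± 0.407 kb, SD, n = 2; exact permutation p = 0.667). With every row of a hub counted, rows under 20 counts included, the distances were 108.8, 106.3, 94.9 and 101.0 kb and no longer overlapped (107.5 ± 1.80 against 97.9 ± 4.27 kb, SD, n = 2; exact permutation p = 0.33). The deposited q-value was under 0.01 in all 4 libraries for 6251 hub loops (30.5%) and in none for 8637 (42.1%). Among loops of no hub the shares were 33.6% and 42.4%.

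The strains were then compared hub by hub, on the total counts of each hub over all its rows. By edgeR's quasi-likelihood test, 153 of 1806 hubs (8.47%) had changed, 75 higher and 78 lower in D2, against 9.75% of all 51820 tested anchors (2.67% higher and 7.08% lower). Whether the split of called hubs differs from that of all anchors was not tested. The median log2 fold change was 0.105 over hubs and 0.00607 over all tested anchors. Shares called were 11.6% for anchors under 10 kb with 5 to 9 loops and 12.8% for wide anchors with at least 10 loops. Hubs over a start site split into 57 higher and 30 lower of 1120, hubs over none into 18 higher and 48 lower of 686; the difference between these splits was not tested. Both the share and the split depended on single libraries. Without B6 replicate 1, 51 hubs were called (2.82%; 15 higher, 36 lower) and 5.00% of all anchors. Without B6 replicate 2, 51 hubs were called (2.82%; 9 higher, 42 lower) and 5.45% of all anchors, and without D2 replicate 1, 82 hubs (4.54%; 13 higher, 69 lower) and 5.10%. Without D2 replicate 2 the hubs exceeded the background, with 443 called (24.5%; 349 higher, 94 lower) against 14.8% of all anchors. DESeq2 called 34 hubs (1.88%; 8 higher, 26 lower) and 2.52% of all anchors. Over tested loops only, 46 hubs were called higher and 113 lower.

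A smaller share of single loops was called among hub loops than among all loops, a difference that was not tested. Of 20504 hub loops, 127 were called (0.619%, 36 higher and 91 lower in D2; 1842 had an unadjusted p under 0.05), against 1.45% of all 108034 tested loops (0.492% higher and 0.957% lower). Among loops with at least 100 counts, 1.93% of 2326 hub loops and 4.87% of 11478 loops of no hub were called. With library totals taken within each chromosome the split of the hub loops was 53 higher and 61 lower. A called loop was present at 85 hubs, at least 2 at 23 hubs, and 6 at most at 1 hub. Of the 153 hubs called in total, 50 had a called loop. Leaving out 1 library gave 28 called hub loops without B6 replicate 1, 24 without B6 replicate 2, 46 without D2 replicate 1 and 181 without D2 replicate 2, and DESeq2 called 3.

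Of the 6 hubs named as higher in D2, those with the smallest adjusted p, 3 lay over the start of a protein-coding gene. An intergenic hub near Gm11334 (chr13:23398382-23403761) had 102 and 130 counts in B6 and 317 and 302 in D2. All 13 of its loops were higher in D2, and the log2 fold change of its total was 1.45 ± 0.169 (SE; edgeR adjusted p = 2.73e-08). Its loop with the smallest p, to an intergenic anchor 12.3 kb away, had 7, 13, 56 and 56 counts, and its loop to the start of Abt1, a cofactor of basal transcription, had 15, 17, 44 and 43. The largest log2 fold change among its loops, 2.51, was at a loop of 1, 4, 20 and 11 counts to histone genes of the Hist1 group, 1361.7 kb away. The hub over Hnrnpll, an RNA-binding splicing regulator (chr17:80058316-80065839), had 148, 135, 305 and 248 counts, a log2 fold change of 1.01 ± 0.170 (SE; adjusted p = 3.11e-05). Of its 14 loops 13 were higher in D2 and none was called singly; the smallest p was at the loop to the splicing factor gene Srsf7 (10, 10, 28 and 21 counts). In neither hub did the strains overlap, which the rule for naming these hubs required.

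The hub over the starts of 4930577N17Rik and Elf2, an ETS transcription factor (chr3:51273383-51280103), had 99, 119, 245 and 171 counts and all 13 loops above 0 (log2 fold change 0.98). Without D2 replicate 1 its change was 0.58 with an edgeR adjusted p of 0.0721, so that call rests on this library. An intergenic hub near Gm49447 (chr16:9005953-9011964) had 121, 123, 234 and 197 counts (0.86), and its loop with the smallest p had 18, 19, 61 and 33. The hub over Pnpla6, a phospholipase (chr8:3513609-3519347), had 205, 195, 378 and 302 counts (0.81) and all 13 loops above 0, of which none was called. The hub over Gm37737 (chr1:59444999-59453321) had 203, 215, 368 and 326 counts (0.77; adjusted p 0.0598 without B6 replicate 1). Its called loop joined it to the start of the Wnt receptor gene Fzd7, 30.9 kb away, with 34, 35, 87 and 74 counts. D2 replicate 1 was the highest library in all 6 of these hubs.

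Of the 6 hubs named as lower in D2, none lay over a start site. An intronic hub of Gm5535 (chr2:144193267-144201752) had 327 and 347 counts in B6 and 95 and 129 in D2. Its total fell by 1.56 on the log2 scale (SE 0.166; edgeR adjusted p = 3.45e-09), all 11 loops were below 0 and 6 were called. An intergenic hub near Eya3, a transcriptional coactivator and phosphatase gene (chr4:132621979-132627289), had 307, 301, 104 and 109 counts and fell by 1.48 (SE 0.164; adjusted p = 9.76e-09). Its loop to the start of Eya3, 24.3 kb away, had 44, 57, 25 and 14 counts. An exonic hub near Apold1 (chr6:134956093-134965911) had 279, 292, 102 and 105 counts and fell by 1.43, with a loop to the start of the receptor gene Gpr19 at 25, 22, 9 and 8 counts. The B6 libraries lay above the D2 libraries at each of these hubs by more than the spread within either strain. The rule for naming these hubs required that the strains do not overlap.

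An intergenic hub near Arid1a, a subunit of the BAF chromatin remodeller (chr4:133767393-133776585), had 373, 326, 123 and 144 counts. Its loop to the Arid1a start, 35.5 kb away, had 85, 57, 26 and 35 counts and was called (log2 fold change -1.28, edgeR adjusted p = 0.000816). An intergenic hub near Hmgn2, a nucleosome-binding protein gene (chr4:133927208-133933074), had 374, 311, 130 and 144 counts, and all 14 loops were below 0. Its loop with the smallest p, to an exonic anchor near Gm12974, had 22, 23, 3 and 7 counts. An intergenic hub near Gm44600 (chr7:30214935-30221425) had 385, 355, 163 and 166 counts, and its loop to the starts of Cox7a1, a respiratory chain subunit, and Capns1, a calpain subunit, had 98, 73, 41 and 27. Every loop of these 6 hubs had a log2 fold change below 0. All 6 stayed called with each library left out and by DESeq2.

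**Figure D3:**
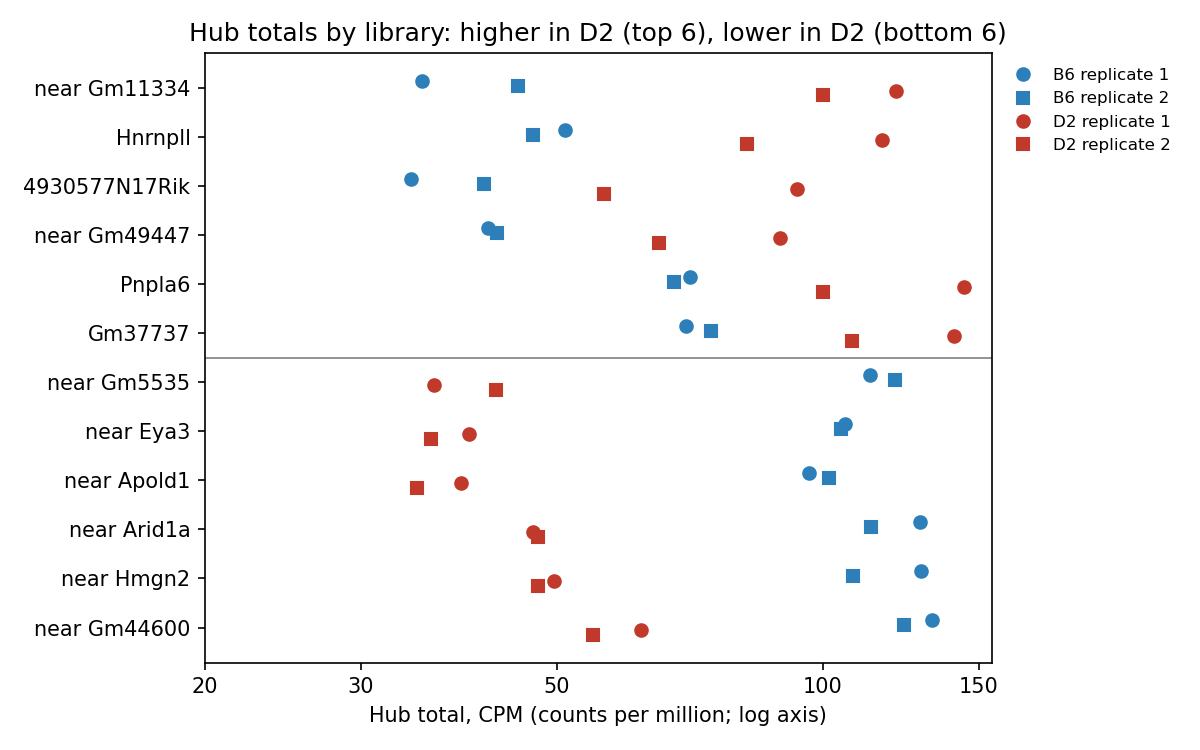
Hub totals in CPM, counts scaled to library size (log axis), in each of the 4 libraries, for the 6 hubs with the smallest adjusted p higher in D2 (top) and the 6 lower in D2 (bottom); "near" marks a hub over no start site. The strains do not overlap at any hub because the hubs were chosen that way. The distance between the D2 libraries is widest in the upper group, where the 4930577N17Rik hub had 93.6 and 56.6 CPM in D2, against 34.2 and 41.4 in B6.

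Whether the contacts of a hub moved together was described from the signs of its loops. At least 80% of the loops had the same sign at 430 of 1806 hubs (23.8%; 234 higher and 196 lower in D2), against 24.4% of all anchors with at least 10 loops. This count follows the scaling: it was 320 higher and 139 lower with library totals within each chromosome, and 188 higher and 228 lower without TMM factors. All loops had the same sign at 52 hubs, 34 lower and 18 higher. Of the hubs called lower, 74 of 78 had at least 80% of loops below 0 and 31 had all; of the hubs called higher, 58 of 75 had at least 80% above 0. Of the 1653 hubs not called, 298 (18.03%) had at least 80% on 1 side. The 2 loops with the most counts had opposite signs at 633 hubs not called (38.3%) and at 11 of the 153 called hubs (7.19%). A called total is made of these loops, so the agreement of called hubs is in part built in.

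Rows under 20 counts gave a measure that neither the rule nor the loops had used. When hubs were called on the sum of their loops alone, 46 were higher and 113 lower. The summed weaker rows had the same sign as the loops at 44 of the 46 higher hubs (median log2 ratio 0.389) and at 112 of the 113 lower hubs (median -0.57), and at 67.4% of the hubs not called. These rows come from the same 4 libraries. Among hubs with at least 3 loops on each side, the summed left and right loops had the same sign at 39 of 40 higher and 101 of 102 lower hubs. The nearer and farther loops had the same sign at 44 of 46 and 113 of 113. The hubs were called on the sum of these loops, so this agreement is in part built in; among hubs not called, left and right had the same sign at 1000 of 1496 (66.8%) and nearer and farther loops at 65.6%.

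**Figure D4:**
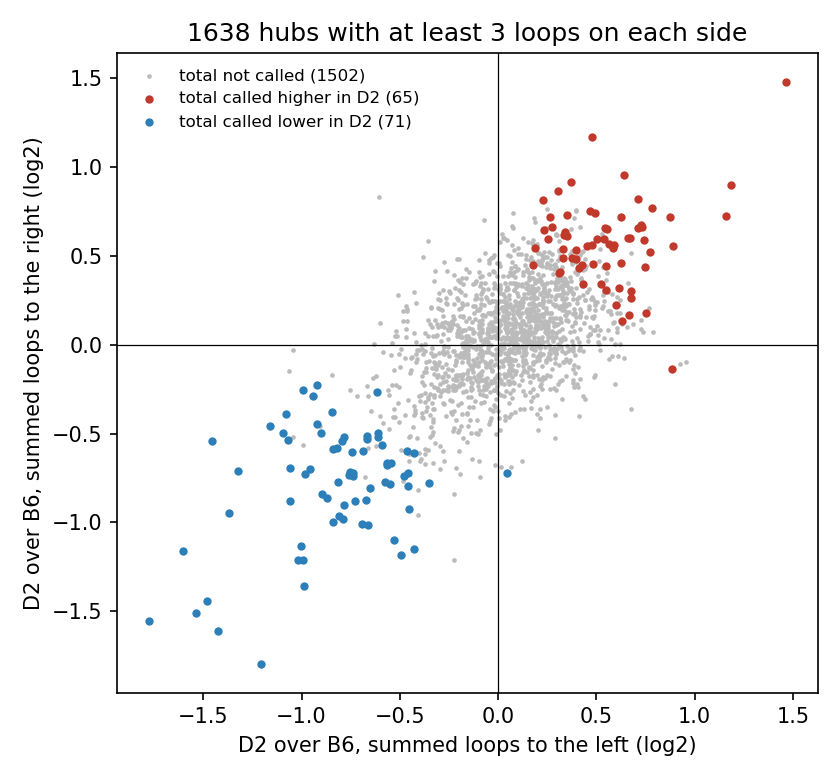
Log2 ratio D2 over B6 of the summed loops to the left of a hub (horizontal) against the summed loops to its right (vertical), for 1638 hubs with at least 3 loops on each side, coloured by the call on the hub total. Of the hubs called higher, 64 of 65 lie in the upper right, and of those called lower, 70 of 71 lie in the lower left; these calls use the same counts. Of the hubs not called, 1006 of 1502 have the same sign on both sides.

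Loops in the surroundings of changed hubs had medians of the same sign, closer to 0. Over the partners' other loops, those that do not use the hub, the log2 fold change had a median of 0.177 at higher hubs, whose own loops had 0.600. For lower hubs the values were -0.42 and -0.67. All loops within 250 kb that do not use the hub had medians of 0.213 and -0.49. The call used the sum of a hub's own loops, so the larger values of those loops are in part built in. At hubs not called, the medians were 0.0587 for own loops, 0.0466 for the partners' other loops and 0.0475 within 250 kb. Hubs differed in how close their surroundings lay to 0. For the hub near Eya3 the loops within 250 kb had a median of -0.02, against a median of -1.43 for its own loops, and for the hub near Gm11334 the values were 0.236 and 1.30. For the hub near Arid1a the surroundings had -0.83 and its own loops -1.79. These hubs were named for the change of their totals, which include their own loops.

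Called hubs could lie side by side. The groups of hubs named here were picked for their called hubs, so their counts of calls describe them and were not tested. The largest group, at chr7:18904444-19566444, had 1 of 24 hubs called higher and 0 lower. In the groups of 21 hubs on chromosome 2 and 19 on chromosome 10, 0 were called. At chr4:133582135-133933074, a region of 7 hubs that includes those near Arid1a and Hmgn2, all 7 were below 0 and 5 were called lower (median log2 fold change -0.67). Chromosome 4 held 20 called hubs among 126, of which 18 were lower (14.3%), and 14.6% of all anchors tested on that chromosome were lower. At chr19:37262771-37367433, around Ide (insulin-degrading enzyme), 3 of 3 hubs were called lower, and at chr13:67493959-67580150, with the zinc finger genes Zfp58 and Zfp87, 3 of 3. At chr8:3465222-3650235, around Pnpla6, Camsap3 and Stxbp2, all 8 hubs were above 0 and 5 were called higher (median 0.507). Over all chromosomes, 4.15% of hubs were called higher and 4.32% lower, against 2.67% and 7.08% of tested anchors. Chromosomes 16 and 1 are named because their shares of hubs called higher were the highest, and these shares were not tested. On chromosome 16, 9 of 85 hubs were called higher (10.6%) and 0 lower, where 3.82% of all anchors tested were higher and 2.57% lower. Chromosome 1 had 5 of 47 hubs called higher (10.6%) and 8 lower (17.0%), against 3.09% and 7.75% of its tested anchors. Neighbouring hubs share loops, so their calls are not independent.

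Loops of a hub agreed less in ratios of libraries of the same strain than in ratios across strains. When the log2 ratio of 2 libraries was computed for each loop, the share of its variance that lay between hubs was 2.02% for the B6 libraries, 6.20% for the D2 libraries and 10.5 to 16.1% for the 4 pairs of different strains. The correlation over 1638 hubs between the summed left and right loops was 0.112, 0.319 and 0.453 to 0.550. The pairs share libraries and the hubs share loops, so these values are descriptions. Pairs with D2 replicate 1 had the 2 highest shares, and the D2 pair exceeded the B6 pair.

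**Figure D5:**
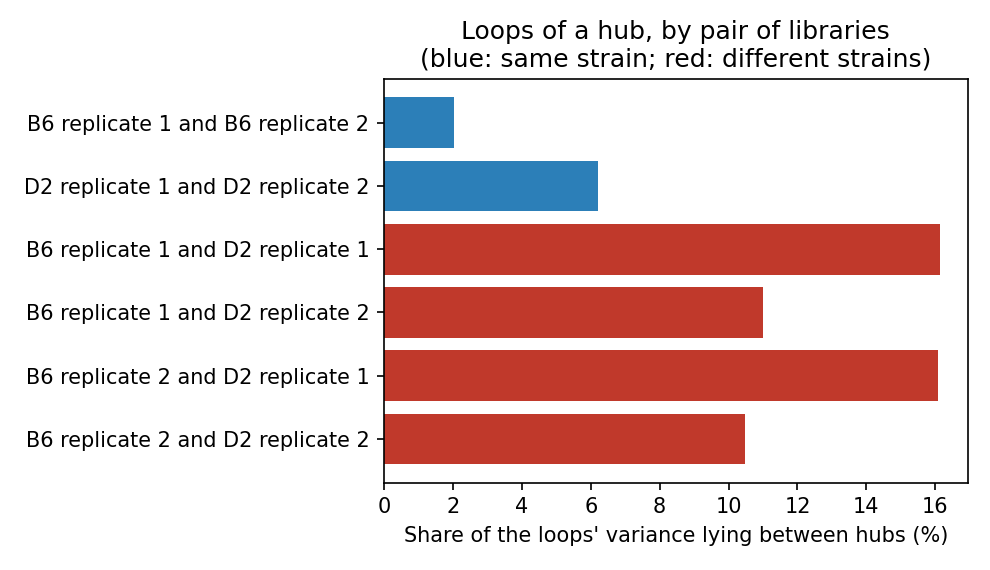
Share of the variance of loop log2 ratios that lies between hubs (%, 1806 hubs), for each pair of libraries; blue bars are pairs of the same strain, red bars pairs of different strains. The same-strain pairs have 2.02 and 6.20%, the different-strain pairs 10.5 to 16.1%.

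The thresholds cut through a continuum. The widest hubs, at Cct6b, near Serping1 and in Nt5c2, were 9992, 9993 and 9998 bp wide, and the narrowest anchors left out for width, near Gm22024, at Med19 and at Vps18, were 10005, 10010 and 10013 bp with 12, 13 and 10 loops. Of the hubs, 448 had exactly 10 loops, and another 663 anchors under 10 kb had 9. The hubs of Csk and Vegfa, with 683 and 745 counts, were among those at 10 loops, while the narrow anchors near Gm35048 and at Gm5089, with 1426 and 1370 counts, had 9 and were no hubs. Hubs were 2665 to 9998 bp wide (median 7604 bp), with a median of 12 loops and 969 counts.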

How the data were processed

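H3K27ac HiChIP of 4 mouse embryonic stem cell libraries was analysed. The deposited table gives raw counts of read pairs per pair of anchors, with no normalization, and the deposited files of each library give a second value from 0 to 1, taken as a q-value. The submitters' processing notes name HiC-Pro 2.11.4, DESeq2 and mm10, with no roles; the caller and its settings are not given in the sources used here. All 56562 anchors end at GATC sites of GRCm38. Genes are from GENCODE M21 and promoters from RefSeq.

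Loops (at least 20 counts) and anchor totals (at least 20) were fitted over the whole table with edgeR 4.0.16 (quasi-likelihood, TMM, strain as the only term, Benjamini-Hochberg, threshold 0.05; R 4.3.3), checked on simulated counts. The SE is the log2 fold change divided by the root of F. Replicates are separate lines. Same-numbered libraries hardly deviated together (r = 0.00760 over 51820 anchors and 0.0691 over the 1806 hubs), so no pairing was used. DESeq2 1.42.0, other scalings, minimums and left-out libraries were alternatives. Hubs named are the 10 with most loops, the 6 with the smallest adjusted p each way whose strains do not overlap (none within 100 kb of or sharing a loop with another), the 3 with the longest and shortest median distance, and those at listed genes; hubs shown for CTCF matches were chosen after their values were seen. The hubs, gene lists and rules were chosen with earlier results of these data known.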

Additional observations from a re-analysis of the deposited data

How the results depend on the processing

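No result reversed its direction among called hubs. Of the 39 hubs named, 12 were called, and in 144 refits of these 12 none changed sign and 2 lost the call (4930577N17Rik without D2 replicate 1, Gm37737 without B6 replicate 1). Called hub loops numbered 24 to 181 with 1 library left out, 3 with DESeq2 and 46 with no count minimum, against 127. Called hub totals numbered 51 to 443 with 1 library left out, 34 with DESeq2 and 55 with no count minimum (10 higher, 45 lower), against 153. With the replicate block, 215 totals, 103 loops and 430 hubs with at least 80% of loops on 1 side were found; the replicate numbers do not pair the lines. Mrpl4 passed with the block (edgeR adjusted p = 0.0354) and without TMM factors (0.0471), and Ccne2 with totals within each chromosome (0.00499); both also passed without D2 replicate 2.
The number of hubs was 162 under 5000 bp, 3464 under 15000 bp, 3346 with at least 8 loops and 378 with at least 15. The percent of hubs called was then 3.09, 9.96, 9.83 and 5.29. Protein-coding start sites were in 56.2% of hubs. The difference in reach per library was -9.59 kb over every row. Causes were not tested.
Signs of uncalled hubs turned as follows. With 1 library left out, log2 fold changes ran from -0.053 to 0.216 for Pola2, -0.17 to 0.169 for Ttyh1, -0.050 to 0.151 near Mapk15, -0.11 to 0.384 for Rpl13 and -0.019 to 0.465 for Kmt2d. Over tested loops only they were -0.12 for Pola2, -0.055 for the intronic Sptbn4 hub and -0.15 near Mapk15; with totals within each chromosome, 0.000125 for Ttyh1 and -0.025 near Mapk15; with DESeq2, 0.00602 for Ttyh1. TMM factors from every row, chosen after seeing the data, gave 154 totals, 108 loops (47 higher, 61 lower) and 405 higher and 132 lower hubs with at least 80% of loops on 1 side. The median log2 fold change over hubs was 0.0201 over tested loops only and 0.150 without B6 replicate 1, its lowest and highest value. With 2 libraries per strain, precision is limited, and counts of loops are low (median 37 per hub loop).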

Other observations

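Gene families at hubs differed in count. Of the 22098 genes of all types with a start site in any anchor, 1555 had it in a hub. For protein-coding genes alone the count was 1214 of 13980. The families below are counted over all gene types. For solute carrier (Slc) genes the count was 34 of 262, for genes of the mitochondrial ribosome (Mrpl and Mrps) 11 of 77, for zinc finger (Zfp) genes 24 of 367, for cytoplasmic ribosomal protein genes (Rpl and Rps, pseudogene copies included) 6 of 170, for histone genes named Hist 3 of 56 and for Hox genes 1 of 19. No test was run on these counts.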
